A study of Mus musculus with 23 samples.

Results

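The genes described here are 7 antimicrobial genes of Paneth cells, Lyz1, Itln1, Mptx2, Defa17, Defa24, Ang4 and Mmp7, taken by symbol from a table of 16259 mouse genes. All 7 symbols were found, and each passed a filter on low values (10 or more normalized reads on average), as did 11939 genes in all. The RNA came from whole proximal small intestine of wild-type mice (12 libraries) and DDIT4 knockout mice (11 libraries), every one labelled male, and the study asks how fasting bears on genotoxic injury of this tissue. Ddit4 encodes an inhibitor of the growth kinase complex mTORC1. The labels do not say in which tissues the knockout acts, or how many animals made a library.

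The wild-type and knockout mice fell into the same 12 conditions, with 1 library of each genotype per condition, except that a knockout library fed ad libitum and taken 2 h after doxorubicin was not analysed here. Without drug there were mice fed ad libitum and harvested at 0 h, mice fasted for 24 h, and mice fasted for 24 h and harvested 2 or 6 h later, which are called refed here. With drug, mice fed ad libitum, or fasted for 24 h and refed by their titles (called prefasted), received doxorubicin, a chemotherapy drug that damages DNA. It was given into the peritoneum at 20 mg/kg, and the mice were harvested 2, 6, 12 or 24 h later. Prefasted against ad libitum thus takes fasting and refeeding together. In the prefasted mice the time since the fast ended equals the time since the drug, so both cannot be told apart. Untreated mice fed ad libitum were harvested at 0 h only, so drug and harvest time cannot be told apart in comparisons with them. No condition had replicates of 1 genotype, so the model (12 conditions plus genotype) took the spread from the 2 genotypes of each condition. The p-values reflect how far these single libraries scatter, nothing more.

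Paneth cells sit at the base of the small intestinal crypts, between the stem cells, and discharge granules of antimicrobial protein into the crypt lumen. Lyz1 encodes the lysozyme of these cells, which cuts bacterial cell walls. Defa17 and Defa24 encode alpha-defensins, small peptides that disrupt bacterial membranes, and Mmp7 encodes matrilysin, the protease that activates mouse alpha-defensins from their precursors. Itln1 encodes a lectin that binds microbial sugars, Mptx2 a mucosal pentraxin, and Ang4 a secreted ribonuclease with bactericidal activity. Wnt signals, acting through TCF factors, are known to drive the maturation of Paneth cells.

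The sequence just upstream of the start was available for 5 of the 7 members (RefSeq, build GRCm38.p6, the assembly also called mm10). The 250 bases before the start of Lyz1, Itln1, Ang4 and Mmp7 are shown because these genes differ in role while their levels are compared library by library here. Each is written 5′ to 3′ on the strand of the gene, and capitals mark every match, on either strand, to CTTTG, the core of the TCF motif, or to TATAAA, the TATA box.
Lyz1, chr10:117292869-117293118, minus strand: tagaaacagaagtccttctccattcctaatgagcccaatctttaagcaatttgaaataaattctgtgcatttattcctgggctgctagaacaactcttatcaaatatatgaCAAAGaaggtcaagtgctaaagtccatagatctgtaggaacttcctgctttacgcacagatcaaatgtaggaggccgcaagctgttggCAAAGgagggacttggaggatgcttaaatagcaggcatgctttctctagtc
Itln1, chr1:171535295-171535544, minus strand: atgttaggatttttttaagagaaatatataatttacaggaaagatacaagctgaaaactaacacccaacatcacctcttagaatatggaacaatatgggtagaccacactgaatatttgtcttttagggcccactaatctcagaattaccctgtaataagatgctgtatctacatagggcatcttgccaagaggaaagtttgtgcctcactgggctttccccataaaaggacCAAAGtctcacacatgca
Ang4, chr14:51773591-51773840, minus strand: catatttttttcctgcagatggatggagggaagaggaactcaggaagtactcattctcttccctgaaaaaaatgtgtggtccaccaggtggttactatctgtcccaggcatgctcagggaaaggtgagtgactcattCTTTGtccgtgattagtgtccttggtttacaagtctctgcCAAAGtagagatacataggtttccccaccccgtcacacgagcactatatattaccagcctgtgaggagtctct
Mmp7, chr9:7691840-7692089, plus strand: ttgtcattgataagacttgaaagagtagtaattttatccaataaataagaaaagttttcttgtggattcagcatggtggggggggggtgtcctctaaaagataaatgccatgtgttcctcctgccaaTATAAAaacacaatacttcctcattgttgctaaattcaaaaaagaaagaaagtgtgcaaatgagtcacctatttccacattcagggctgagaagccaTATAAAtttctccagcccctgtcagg

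Lyz1 held CTTTG on the opposite strand 139 and 51 bases before its start, Itln1 on the opposite strand 18 bases before, and Ang4 on the given strand 113 bases before and on the opposite strand 73 bases before. Mptx2 held it 96 bases before its start. The Mmp7 stretch shown had no CTTTG, and the matches of Mmp7 lay upstream of another start listed for the gene, within its gene body. The 5 members have 6 such stretches, and CTTTG was in 5 of the 6, against 48.6% of 32851 upstream stretches of this length. TATAAA was in 1 of the 6, the Mmp7 stretch shown, at 123 and 26 bases before the start, against 12.4% of all stretches. No match overlaps another in these stretches, and a match is a description of the letters alone.

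Lyz1 (ENSMUSG00000069515.6) lies on chromosome 10 of mm10 from 117287797 to 117292868, Itln1 (ENSMUSG00000038209.12) on chromosome 1 from 171518122 to 171535294 and Mptx2 (ENSMUSG00000079180.4) on chromosome 1 from 173274382 to 173277777. Both defensins are on chromosome 8, Defa17 (ENSMUSG00000060208.5) from 21655780 to 21656735 and Defa24 (ENSMUSG00000064213.5) from 21734494 to 21735471. Ang4 (ENSMUSG00000060615.5) is on chromosome 14 from 51763878 to 51773590, and Mmp7 (ENSMUSG00000018623.9) on chromosome 9 from 7692090 to 7699585. These are gene bodies from the annotation, and the reads fall on their merged exons, which number 2 in Mptx2, Defa17, Defa24 and Ang4, 4 in Lyz1, 6 in Mmp7 and 8 in Itln1. Near copies limit what a count means: 92.0% of the 50-base windows of Defa17 and 28.1% of those of Defa24 occur in other genes as well, mostly other alpha-defensins, so reads could be split between them and both values are uncertain. Shared windows made up 18.0% of Mptx2 (with Mptx1), 16.1% of Lyz1 (with Lyz2), 4.70% of Ang4, 1.01% of Itln1 and 0% of Mmp7. Lyz2, the macrophage lysozyme, had 70.0 to 824 normalized reads, and its highest library, the fasted knockout, was not the one in which Lyz1 was highest.

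Reads assigned to genes numbered 11418115 to 23428519 per library. Ddit4 was lower in knockout libraries (log2 difference -7.09 ± 0.42, SE, adjusted p = 1.3e-07). Summed over 9 enterocyte markers, the libraries held 847796 to 1671477 normalized reads, and all 23 held reads of each of the 7 members. In 3 untreated knockout libraries (ad libitum, fasted, refed 2 h) Y-linked genes had at most 5 reads, against at least 1088 in the other 20, although the label is male for all. The fasted knockout and the wild type after 6 h of refeeding held 68008 and 178267 normalized reads of 10 pancreatic acinar genes, against at most 2934 elsewhere. For 4 wild-type prefasted libraries the title (untreated) conflicts with the drug label (doxorubicin), and the label was used here. Results that these libraries change are given with and without them.

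A normalized read is a read count divided by 1 factor per library, and 1 read stood for 0.705 to 1.672 of them. Per kilobase of exon, the median level over the 23 libraries was highest for Defa24 (5660 normalized reads per kilobase), followed by Itln1 (1837) and Lyz1 (1612). Defa17 had 797, Ang4 260, Mptx2 154 and Mmp7, the only protease of the set, 55.8 on the same scale. Itln1 and Lyz1 were neighbours in that order whose ratio in normalized reads ranged over both sides of 1, with Lyz1 over Itln1 from 0.367 to 2.03. Together the members took 0.0133% to 0.292% of a library's normalized reads, a sum of 2564 in the prefasted knockout 12 h after doxorubicin and 45921 in the wild type refed for 2 h without drug.

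The spread between libraries was wide for every member. In whole tissue, fewer Paneth cells and less RNA per Paneth cell cannot be told apart. Lyz1 ranged from 702 to 14958 normalized reads (median 2036), Itln1 from 817 to 8968 (2096), Defa24 from 542 to 17544 (2372) and Defa17 from 36.7 to 2443 (317). Mptx2 spanned the most, from 3.80 to 721 (median 122), a ratio of 190 between the highest and the lowest library. Ang4 ranged from 38.1 to 1971 (median 184) and Mmp7 from 10.5 to 344 (median 59.6). The wild type refed for 2 h without drug was the highest library for Lyz1, Itln1, Defa17, Defa24 and Mmp7, and the untreated knockout fed ad libitum was the highest for Mptx2 and Ang4. The lowest library was the prefasted knockout 12 h after doxorubicin for Lyz1, Defa17 and Defa24, the prefasted wild type at 12 h for Itln1 and Mptx2, and an ad libitum wild type after doxorubicin for Ang4 (12 h) and Mmp7 (2 h).

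**Figure D1:**
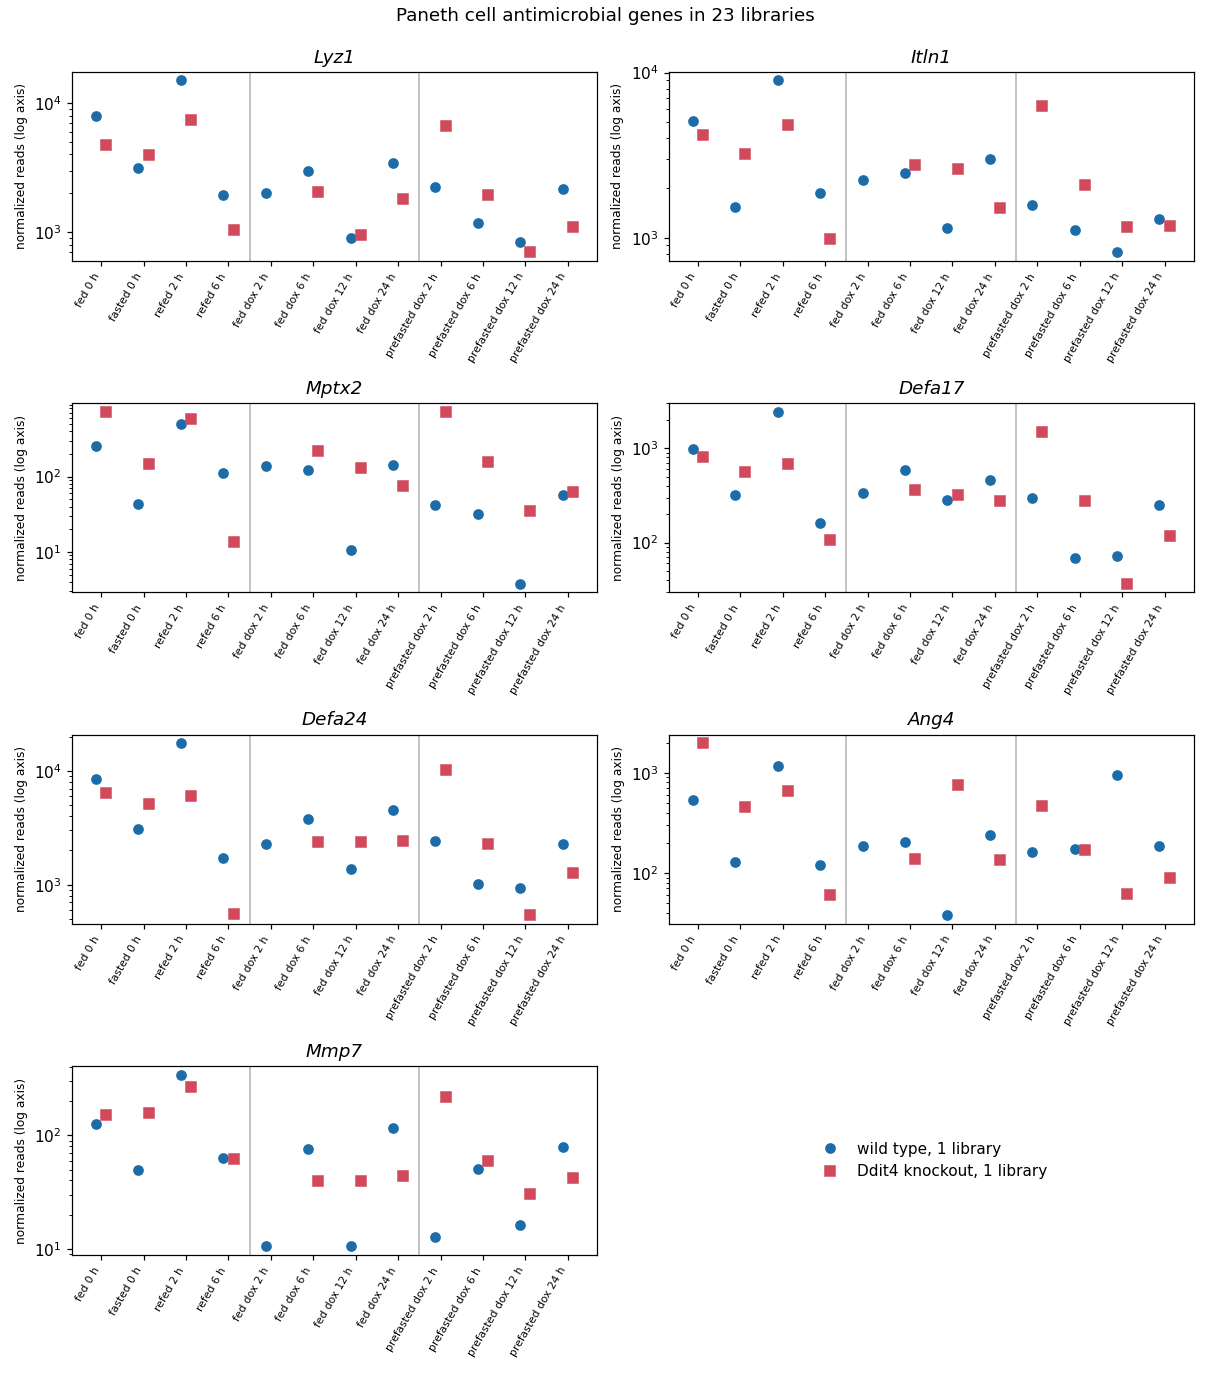
Normalized reads of each member (log axis) in the 23 libraries by condition, circles for wild type and squares for knockout, each point 1 library. Lyz1, Itln1, both defensins and Mmp7 were highest in the wild type refed for 2 h without drug, and Lyz1 ranged from 702 to 14958.

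Feeding without drug was compared first, along the order ad libitum, fasted, refed 2 h and refed 6 h. In the wild type, Lyz1 had 7898, 3133, 14958 and 1931 normalized reads in that order, and in the knockout 4748, 3987, 7437 and 1045. Both genotypes were lower fasted than fed, highest at 2 h of refeeding and lowest at 6 h. Itln1 had 5112, 1542, 8968 and 1869 in the wild type and 4176, 3212, 4786 and 976 in the knockout, the same order apart from the wild type, whose lowest library was the fasted one.

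The defensins and their activating protease also had their highest wild-type library at 2 h of refeeding. Defa24 had 8555, 3111, 17544 and 1715 normalized reads in the wild type and 6410, 5157, 5989 and 558 in the knockout. Defa17, most of whose windows occur in near copies as well, had 992, 317, 2443 and 162 in the wild type and 816, 555, 689 and 106 in the knockout. In the knockout both defensins were highest in the ad libitum library rather than at 2 h of refeeding. Mmp7 had 125, 49.5, 344 and 63.5 in the wild type and 150, 157, 270 and 61.4 in the knockout, so its fasted knockout was not below the ad libitum one.

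Mptx2 had 255, 43.4, 493 and 110 normalized reads in the wild type and 721, 146, 584 and 13.5 in the knockout. Ang4 had 539, 129, 1172 and 119 in the wild type and 1971, 459, 651 and 60.2 in the knockout. For both genes the knockout was highest when fed ad libitum and the wild type at 2 h of refeeding.

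Fasted libraries were not separated from ad libitum ones by the test. The 7 members had log2 differences from -2.41 (Mptx2) to -0.63 (Mmp7), median -1.05, on the scale of log2(value + 1) used throughout, beside a median of 0 over all genes tested. Lyz1 stood at -0.79 ± 0.48 (SE) and Itln1 at -1.05 ± 0.56, and no member was below an adjusted p of 0.71 (limma, Benjamini-Hochberg over all 11939 genes). Of all genes, 0.343% passed. All 7 members were lower fasted in the wild type and 6 in the knockout, where Mmp7 was at 0.06.

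From fasted to 2 h of refeeding, all 7 members were above 0 in both genotypes without passing the test. The median log2 difference was 1.63, beside 0.03 over all genes, with Lyz1 at 1.58 ± 0.48, Itln1 at 1.56 ± 0.56 and Mptx2 at 2.73 ± 1.16 (adjusted p = 0.26, 0.38 and 0.51). Of all genes, 0.251% passed. The wild type had a median of 2.77 and the knockout of 0.58, 1 pair of libraries each. Without the 4 libraries of conflicting title, Lyz1 alone passed, with the same difference (adjusted p = 0.041).

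Between 2 and 6 h of refeeding the members fell. Lyz1 fell 7.42-fold (log2 -2.89 ± 0.48, adjusted p = 0.0048), Defa24 10.5-fold (-3.39 ± 0.67, adjusted p = 0.0098), Defa17 9.84-fold (-3.30 ± 0.74, adjusted p = 0.016) and Itln1 4.85-fold (-2.28 ± 0.56, adjusted p = 0.024). Mptx2 (-3.74 ± 1.16, adjusted p = 0.054), Ang4 (-3.35 ± 1.21, adjusted p = 0.089) and Mmp7 (-2.27 ± 0.91, adjusted p = 0.12) did not pass. So 4 of 7 members passed, against 9.00% of all genes, and the members' median was -3.30 beside -0.05 over all genes. For each of the 7 members the lower of the 2 libraries at 2 h was above the higher of the 2 at 6 h.

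These calls moved with the libraries used. Without the wild type refed for 2 h, 0 members passed (the 4 had log2 -2.47, -2.64, -2.34 and -1.65 for Lyz1, Defa24, Defa17 and Itln1, adjusted p from 0.098 to 0.24), and without the knockout at 6 h only Lyz1 did. Without the 3 libraries short of Y-linked reads, one of which is the knockout refed for 2 h, 2 members passed, while Itln1 at -2.90 and Defa17 at -4.24 lay further from 0 than with them (adjusted p = 0.074 and 0.054). Without the 2 libraries holding pancreatic transcripts, one of which is the wild type at 6 h, Mptx2 stood at -6.01 and passed too (adjusted p = 0.010). Without the 4 libraries of conflicting title, none of which is in this comparison, 6 of 7 members passed, with Mptx2 and Mmp7 added at the same differences (adjusted p = 0.038 and 0.048).

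Other alpha-defensins, some of which share windows with the members, and genes of neighbouring crypt cells moved with the members between these times. Of 13 tested other alpha-defensins, 7 fell, with a median log2 difference of -3.52, among them Defa38 at -3.89 ± 0.68 and Defa30 at -3.52 ± 0.62 (adjusted p = 0.0056 and 0.0057). Of 6 stem cell markers 4 fell, with the stem cell gene Olfm4 at -3.13 ± 0.63, and of 12 G2/M genes 7 fell, with the proliferation antigen Mki67 at -2.53 ± 0.55 (adjusted p = 0.010 and 0.015). Summed over the 12 G2/M genes, the 2 libraries at 2 h held 2497 and 3961 normalized reads and those at 6 h 520 and 741. The 6 stem markers went from 3350 and 7377 to 836 and 897. Goblet markers had a median of -0.53 and enterocyte markers of 0.26, with 0 of 7 and 0 of 9 past the threshold. Lists of other tissue moved as well. Of 4 fat markers 3 fell, the fat cell genes Adipoq at -7.40 ± 1.42, Fabp4 at -7.33 ± 1.48 and Plin1 at -5.89 ± 1.59 (adjusted p = 0.0085, 0.010 and 0.033), and the level of the list relative to each gene's mean was 2.24 and 3.22 in the libraries at 2 h and -3.06 and -1.88 in those at 6 h. Of 7 enteroendocrine markers 2 fell, among them the granin gene Chga at -0.86 ± 0.23 (adjusted p = 0.033), and of 7 macrophage markers 1 rose, Cd68 at 2.27 ± 0.68 (adjusted p = 0.048). The part of crypt or fat content of the sample in the members' fall was not tested.

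Other secreted products and regulators of Paneth cells did not fall as a block, but expression of these lists outside Paneth cells was not examined. The products Clps, Pnliprp2 and Nupr1 had their highest values (7071, 3627 and 144 normalized reads) in the wild type refed for 6 h. That library holds pancreatic transcripts. Of 12 other secreted products 2 fell between 2 and 6 h of refeeding, Habp2, a serum protease, at -4.51 ± 0.89 and Reg4, a lectin-like protein, at -0.92 ± 0.19, with a list median of -0.77. Of 17 identity and secretory regulators 2 fell, the potassium channel gene Kcnn4 at -3.74 ± 0.61 and the transcription factor gene Sox9, needed for Paneth cells to form, at -1.66 ± 0.40 (adjusted p = 0.0048 and 0.022), with a list median of -0.43.

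**Figure D2:**
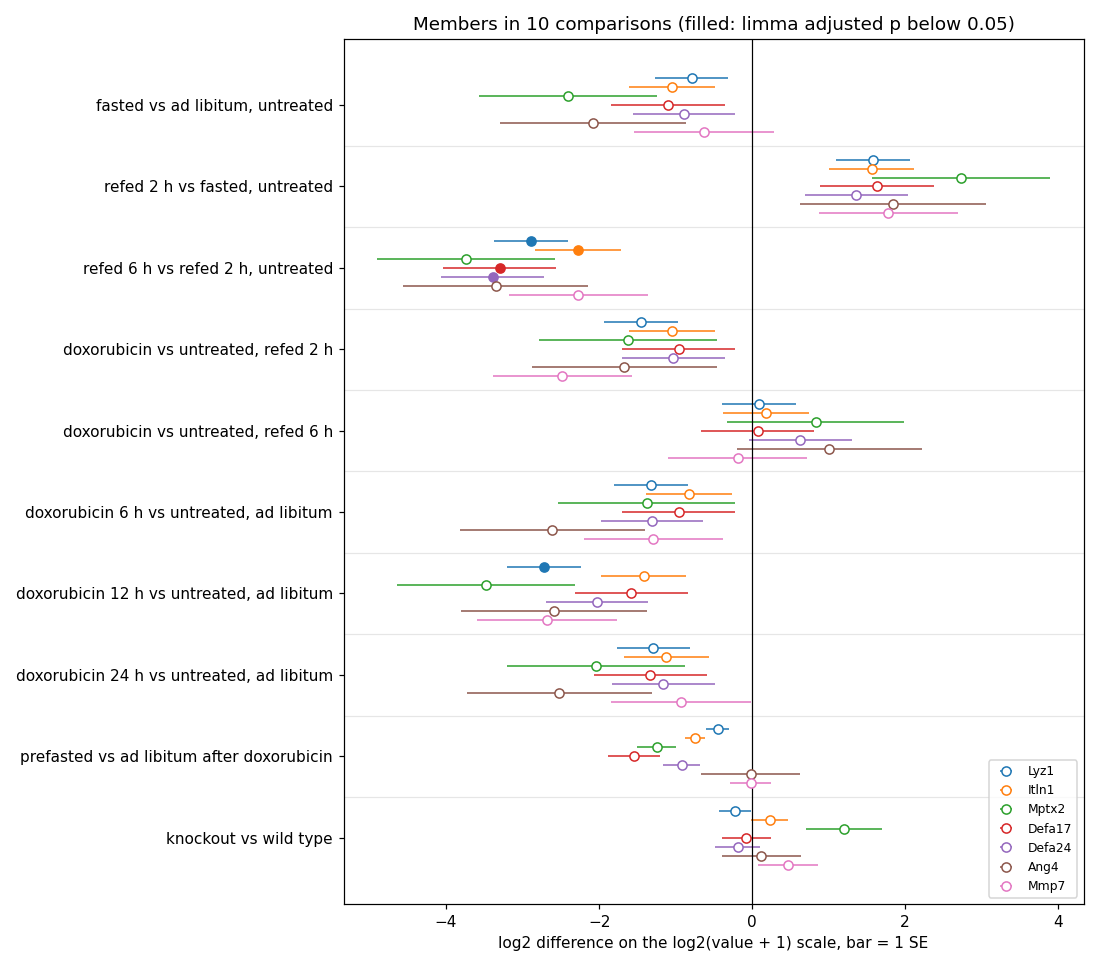
Log2 difference of each member in 10 comparisons, with 1 SE as the bar, filled where the adjusted p was below 0.05. The filled points are Lyz1, Itln1, Defa17 and Defa24 between 2 and 6 h of refeeding and Lyz1 at 12 h of doxorubicin.

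Doxorubicin in refed mice was compared with refeeding alone at the same times. At 2 h, the wild-type library with drug was below the one without for all 7 members: Lyz1 had 2236 against 14958 normalized reads, Defa24 2441 against 17544 and Mmp7 12.8 against 344. In the knockout the order was mixed, with Lyz1 at 6685 against 7437, Defa24 at 10255 against 5989 and Mmp7 at 217 against 270. The 2 genotypes thus differed at this time, with a median over members of -2.86 in the wild type, where the values ran from -4.64 to -2.50, and 0.29 in the knockout, where they ran from -0.48 to 1.12, from 1 pair of libraries each.

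In the model no member passed at 2 h, where 0.0335% of all genes did. Lyz1 stood at -1.45 ± 0.48 (adjusted p = 0.26) and Mmp7 at -2.48 ± 0.91 (adjusted p = 0.30), with a median of -1.45 over the members. Leaving out the prefasted knockout at 2 h of doxorubicin moved Lyz1 to -2.44 and Mmp7 to -4.40, and both then passed (adjusted p = 0.044 for each). The wild-type library with drug is one of those with a conflicting title, and the knockout library without drug is one of those lacking Y-linked reads.

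At 6 h no member passed in refed mice, and the medians of the 2 genotypes lay on opposite sides of 0. In the wild type 6 of 7 members were lower with drug (median -0.75, from -1.75 to 0.55), and in the knockout 6 of 7 were higher (median 1.37, from -0.04 to 3.41), from 1 pair of libraries each. Lyz1 had 1178 normalized reads with drug and 1931 without in the wild type, and 1950 and 1045 in the knockout. In the model, which averages both genotypes, the members' log2 differences ran from -0.19 to 1.01 with a median of 0.18, and the interval of Lyz1 was -0.98 to 1.17 (95%). A difference between the genotypes at this time was not tested, and the wild-type library with drug has a conflicting title. The percentage of all genes past the threshold was 0.00% (1439 genes had an unadjusted p under 0.05, edgeR called 0 and DESeq2 127). The change of the drug effect from 2 to 6 h was tested itself and no member passed, with values from 1.03 to 2.68 and adjusted p of at least 0.58, where 0.00838% of all genes passed.

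After doxorubicin in mice fed ad libitum, the lysozyme gene was lower at 12 h than in untreated mice at 0 h. No untreated library fed ad libitum was harvested at a later time, so drug and harvest time cannot be told apart. In the wild type, Lyz1 had 7898 normalized reads without drug and 1997, 2961, 896 and 3421 at 2, 6, 12 and 24 h, and in the knockout 4748 without drug and 2036, 958 and 1821 at 6, 12 and 24 h. Every library with drug was below both without, and 12 h was the lowest time in either genotype. At 12 h Lyz1 fell 6.60-fold (log2 -2.72 ± 0.48, adjusted p = 0.0035), and this call held in each of the alternatives run, in which the difference ranged from -3.02 to -2.45.

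Itln1 had 5112 normalized reads without drug in the wild type and 2237, 2460, 1142 and 2983 from 2 to 24 h, and in the knockout 4176 and then 2751, 2612 and 1519 from 6 to 24 h. Its lowest time was 12 h in the wild type and 24 h in the knockout. Mptx2 had 255 and then 137, 122, 10.5 and 142 in the wild type, and 721 and then 220, 128 and 75.4 in the knockout. The wild type at 12 h was 1 of the 2 lowest libraries for this pentraxin gene.

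Defa24 had 8555 normalized reads without drug in the wild type and 2281, 3790, 1385 and 4526 from 2 to 24 h, and in the knockout 6410 and then 2352, 2372 and 2424. In the knockout the 3 times gave nearly the same value. Defa17 had 992 and then 332, 589, 283 and 462 in the wild type, and 816 and then 363, 319 and 276 in the knockout. Mmp7 had 125 and then 10.5, 76.3, 10.5 and 116 in the wild type, and 150 and then 39.9, 39.3 and 43.7 in the knockout. In the wild type the protease was near its level without drug at 24 h, lower at 6 h, and lowest at 2 and 12 h.

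Ang4 had 539 normalized reads without drug in the wild type and 187, 203, 38.1 and 239 from 2 to 24 h, and in the knockout 1971 and then 139, 755 and 135. Its 12 h library was the lowest of the series in the wild type and the highest of the ad libitum doxorubicin libraries in the knockout, so the 2 genotypes went opposite ways from 6 to 12 h. The log2 difference at 12 h was -2.59 ± 1.21, and it was -0.30 without the wild-type and -4.87 without the knockout library of that time.

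At 12 h, 1 of 7 members passed, against 9.00% of all genes. The other 6 had log2 differences of -1.42 ± 0.56 (Itln1), -3.48 ± 1.16 (Mptx2), -1.58 ± 0.74 (Defa17), -2.03 ± 0.67 (Defa24), -2.59 ± 1.21 (Ang4) and -2.68 ± 0.91 (Mmp7), with adjusted p from 0.071 to 0.20. The members' median was -2.59 beside -0.01 over all genes, and all 7 members were below 0 in each genotype. Of 13 other alpha-defensins 2 fell, Defa30 at -2.34 ± 0.62 and Defa3 at -2.70 ± 0.81, with a list median of -2.38. Beside these, 3 of 6 stem markers fell (Olfm4 -5.76 ± 0.63) and 5 of 12 G2/M genes (Ccnb2, a mitotic cyclin, -2.89 ± 0.56). The stem markers summed to 2914 and 3845 normalized reads without drug and to 565 and 580 at 12 h, and the part of crypt content in the difference was not tested. One marker each of the enterocyte and fat lists rose, Apoa1 at 1.13 ± 0.33 and Cidec at 1.10 ± 0.31 (adjusted p = 0.044 and 0.034).

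The other Paneth lists had medians near 0 at 12 h. Of 12 other secreted products 1 fell, Ang, a ribonuclease related to Ang4, at -1.46 ± 0.30 (adjusted p = 0.0083), and the list median was 0.13. Of 17 regulators 1 fell, Kcnn4 at -2.41 ± 0.61, with a list median of -0.16. The secretory regulators Atoh1, Gfi1 and Spdef, transcription factor genes of the secretory lineage, did not pass.

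The other times in mice fed ad libitum gave no call. At 6 h the members' median was -1.31, with Lyz1 at -1.32 ± 0.48 and Ang4 at -2.61 ± 1.21 (adjusted p = 0.21 and 0.33), where 1.34% of all genes passed. At 24 h the median was -1.29, with Lyz1 at -1.29 ± 0.48 and Ang4 at -2.52 ± 1.21 (adjusted p = 0.15 and 0.28), where 3.11% passed. Without the 4 libraries of conflicting title Lyz1 passed at both times, with the same differences (adjusted p = 0.037 and 0.028). These comparisons share the 2 untreated libraries with the one at 12 h, so they are not separate evidence.

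From 6 to 24 h after the drug the members had medians near 0. The median was 0.02 in mice fed ad libitum, with values from -0.66 to 0.36, and 0.03 in prefasted mice, with values from -0.42 to 0.33. No member passed in either, and 0.00% and 0.00% of all genes did (850 and 1382 genes with an unadjusted p under 0.05, edgeR 0 and 0, DESeq2 46 and 199). The interval of Lyz1 was -1.05 to 1.10 in the first and -1.04 to 1.10 in the second.

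Prefasted mice were compared with mice fed ad libitum after doxorubicin, in 7 pairs of libraries matched on genotype and time. Every wild-type pair holds a prefasted library of conflicting title, and would set no drug against drug if the title were right. In the knockout pairs, 5 of 7 members were lower prefasted at 6 h (2 were higher), and 7 of 7 at 12 h and at 24 h. In the 8 prefasted libraries Lyz1 had 2236, 1178, 847 and 2161 normalized reads in the wild type at 2, 6, 12 and 24 h and 6685, 1950, 702 and 1106 in the knockout. Both genotypes were lowest at 12 h, as in mice fed ad libitum. Itln1 had 1586, 1111, 817 and 1295 in the wild type and 6321, 2096, 1156 and 1175 in the knockout. It was below the matched ad libitum library in 7 of 7 pairs, with differences from -1.20 to -0.37.

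Defa24 had 2441, 1014, 937 and 2299 normalized reads in the prefasted wild type and 10255, 2276, 542 and 1278 in the knockout, and Defa17 296, 68.2, 71.2 and 251 in the wild type and 1501, 276, 36.7 and 118 in the knockout. Defa17 was lower prefasted in 7 of 7 pairs and Defa24 in 6 of 7. Mptx2 had 42.0, 32.0, 3.80 and 57.6 in the wild type and 714, 154, 34.9 and 61.6 in the knockout, and was lower in 7 of 7 pairs. The 3.80 normalized reads at 12 h stand for 4 reads, so that value has wide counting error.

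Mmp7 had 12.8, 50.1, 16.1 and 79.4 normalized reads in the prefasted wild type and 217, 59.6, 30.4 and 42.1 in the knockout, lower in 4 of 7 pairs and higher in 3. Ang4 had 161, 174, 944 and 184 in the wild type and 466, 168, 61.7 and 88.3 in the knockout. It was lower in 5 of 7 pairs, but the 12 h pairs went apart, at 4.59 in the wild type and -3.59 in the knockout.

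Over the 7 pairs Itln1 had a log2 difference of -0.75 ± 0.13, Mptx2 of -1.25 ± 0.25, Defa17 of -1.54 ± 0.34, Defa24 of -0.92 ± 0.24 and Lyz1 of -0.45 ± 0.15. Ang4 (-0.02 ± 0.65) and Mmp7 (-0.02 ± 0.27) had differences near 0, but that of Ang4 ranged from -1.31 to 0.57 over the alternatives run. No member passed, with adjusted p from 0.31 (Itln1) to 0.99, and 0.00% of all genes passed (766 with an unadjusted p under 0.05, edgeR 0, DESeq2 21). With DESeq2 on the recovered reads Itln1 (adjusted p = 0.0011), Mptx2 (0.0093) and Defa24 (0.041) were among those 21, so these calls rest on the tool. The members' median was -0.75 beside -0.01 over all genes, and other alpha-defensins had a median of -0.94, with 12 of 13 below 0 and 0 past the threshold. The 12 G2/M genes, whose median was -0.49, were all below 0 as well, and their part in the difference was not tested.

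**Figure D3:**
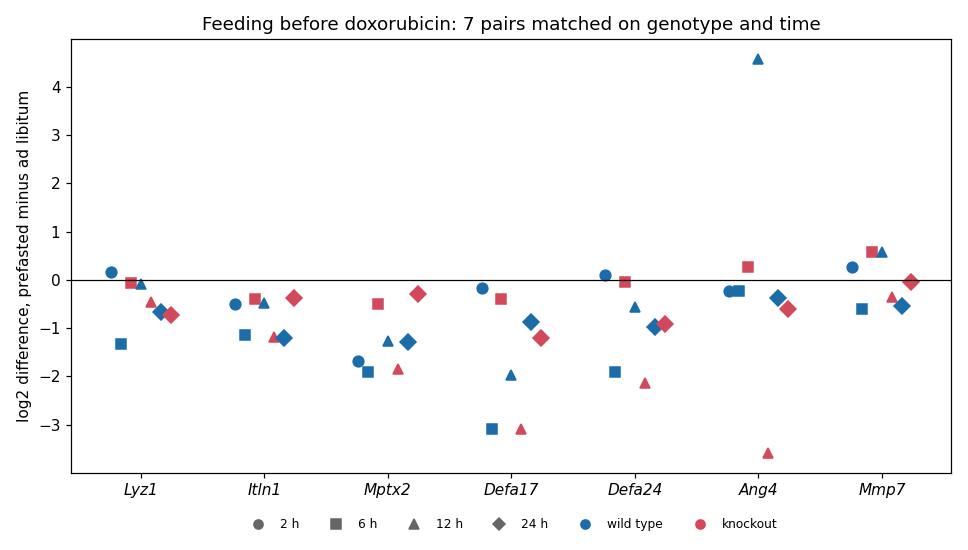
Log2 difference, prefasted minus ad libitum, of each member in 7 pairs matched on genotype and time after doxorubicin; each point is 1 pair, colour gives the genotype and shape the time. Itln1, Mptx2 and Defa17 lie below 0 in 7 of 7 pairs, and Ang4 spreads from -3.59 to 4.59.

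Whether this difference changed with time or genotype was tested too. The late times (12 and 24 h) minus the early ones gave members from -0.57 to 0.19, with adjusted p of at least 0.88, and the knockout minus the wild type from -2.25 (Ang4) to 0.65, with adjusted p of 1.0. Of all genes 0.00% passed in each (671 and 225 with an unadjusted p under 0.05, edgeR 2 and 0, DESeq2 22 and 0).

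Loss of Ddit4 did not move the members past the threshold over the 11 conditions with both genotypes. The values ran from -0.23 ± 0.21 (Lyz1) to 1.20 ± 0.50 (Mptx2) with a median of 0.12 and adjusted p from 0.33 to 0.96, where 0.578% of all genes passed. Mptx2 was higher in the knockout in 9 of 11 pairs, with an interval of 0.10 to 2.31 before adjustment over genes. The differences of its pairs ranged from -2.94 to 4.06. Over the alternatives run the Mptx2 difference ranged from 0.13 to 1.82, and from 0.92 to 1.62 with single libraries left out. Lyz1 was lower in the knockout in 7 of 11 pairs and its interval was -0.69 to 0.22. Mmp7 stood at 0.47 ± 0.39 and was higher in 6 of 11.

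Within conditions the genotypes differed in both directions. At 2 h in prefasted doxorubicin mice all 7 members were higher in the knockout, by log2 1.53 to 4.06, and in fasted mice by 0.35 to 1.83. In mice fed ad libitum all 7 were higher in the knockout 12 h after the drug and lower 24 h after it, and all 7 were lower in the knockout refed for 6 h. These are differences between 2 libraries each, and several of the libraries have limits of their own. The prefasted wild types at 2 h and other times have conflicting titles, and the fasted knockout lacks Y-linked reads. The fasted knockout and the wild type refed for 6 h hold pancreatic transcripts. Genotype cannot be told apart from these features in single pairs. The change of the knockout difference with drug was tested, and members ran from -0.55 (Ang4) to 1.68 (Mptx2) with adjusted p of at least 0.98, where 0.00% of all genes passed (496 with an unadjusted p under 0.05, edgeR 0, DESeq2 7). The 3 libraries lacking Y-linked reads are untreated knockouts, so drug and that lack are partly mixed in this change. Y-linked genes ran from 4.54 (Kdm5d) to 6.96 (Eif2s3y) in it, none past the threshold. It was not fitted without these libraries.

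The order of the condition means in the model was alike for most members. Prefasted mice 12 h after doxorubicin had the lowest mean for Lyz1, Itln1, Mptx2, Defa17 and Defa24, and refed mice at 2 h without drug had the highest for these 5 and for Mmp7. Ang4 was lowest at 6 h of refeeding and highest in untreated mice fed ad libitum, and Mmp7 was lowest 2 h after the drug in the ad libitum condition that has 1 library. From lowest to highest the means of Lyz1 spanned 3.77 on the log2 scale and those of Mptx2 5.36. Neighbours in the order did not differ beyond their spread: for each member 0 of 11 gaps exceeded the half-width of a 95% interval for a difference of 2 conditions, which was 1.07 for Lyz1, 1.25 for Itln1 and 2.70 for Ang4, against largest gaps of 0.78, 0.54 and 1.67.

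The members rose and fell together across the 23 libraries, which share conditions, depth and tissue content. Over the 21 pairs of members Pearson's r of the log2 values ran from 0.54 to 0.96 with a median of 0.78, a description over libraries and not a test. The defensins were closest (r = 0.96, with windows shared between them), then Lyz1 with Defa24 (0.94) and Itln1 with Defa24 (0.93). Ang4 was the loosest member, with r from 0.54 with Mmp7 to 0.67 with Defa24.

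The ratio of a member to Defa24 within a library shows where they part. Defa17 over Defa24 kept between 0.0673 and 0.204, while Mmp7 over Defa24 ran from 0.00459 to 0.110 and Mptx2 over Defa24 from 0.00405 to 0.113. The Mptx2 ratio was lowest in both wild-type libraries 12 h after doxorubicin (0.00405 prefasted, 0.00759 ad libitum) and highest in the untreated knockout fed ad libitum. The Mmp7 ratio was lowest in the wild type 2 h after doxorubicin, fed (0.00459) and prefasted (0.00526). The Ang4 ratio ran from 0.0275 to 1.01 with a median of 0.0692, and stood above 0.3 in 3 libraries: the prefasted wild type at 12 h (1.01), the ad libitum knockout at 12 h (0.318) and the untreated ad libitum knockout (0.308).

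**Figure D4:**
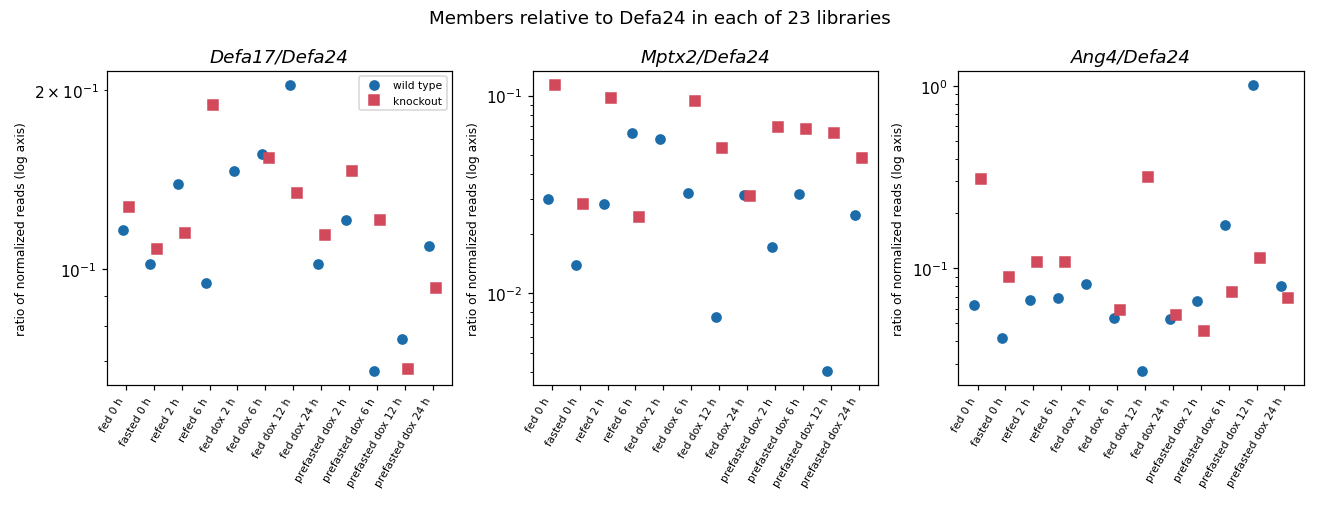
Ratio of Defa17, Mptx2 and Ang4 to Defa24 in normalized reads (log axes) in each of 23 libraries, circles for wild type and squares for knockout. Defa17 stays between 0.0673 and 0.204 of Defa24, and Ang4 reaches 1.01 in the prefasted wild type 12 h after doxorubicin.

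The genes whose log2 values followed the mean of the members most closely were looked for among 9547 named genes averaging 50 or more normalized reads. The first 4 were other alpha-defensins, Defa39 (r = 0.96), Defa30 (0.96), Defa38 (0.95) and Defa3 (0.93), which share windows with the members. After them came Cdc20 (0.89), Hmga1b (0.89), Tsfm (0.88), Tyms (0.88), Krt19 (0.88) and Ahsa1 (0.87). Over all genes the median r was -0.03, and 100 genes had r above 0.8. The list of 12 G2/M genes had r = 0.86 with the members' mean level and the 6 stem markers 0.79, against 0.13 for goblet, -0.35 for enterocyte and 0.03 for pancreatic markers.

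**Figure D5:**
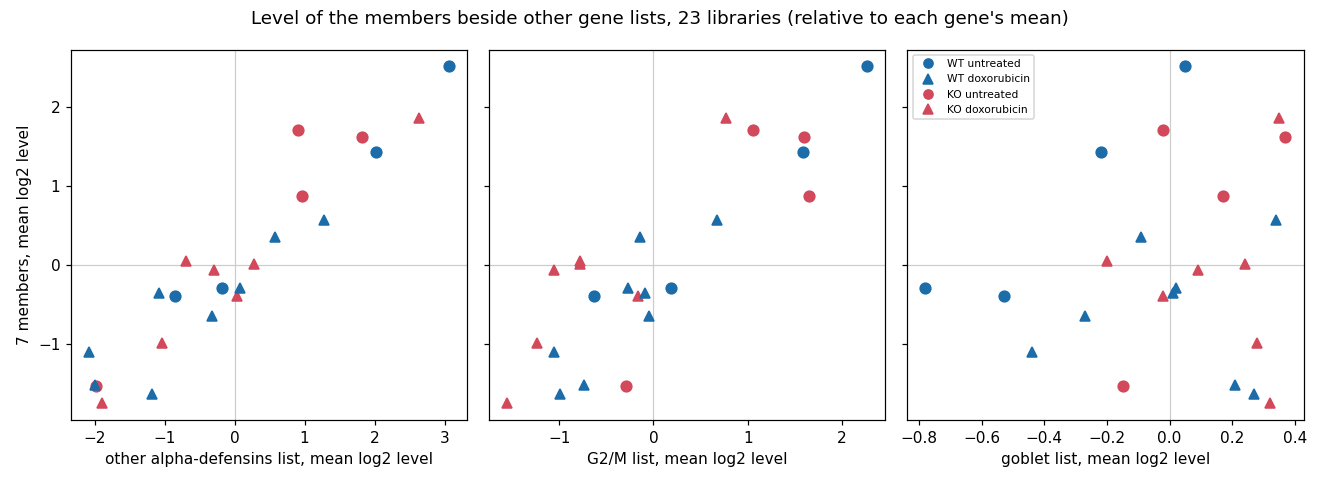
Mean log2 level of the 7 members, relative to each gene's mean over the 23 libraries, against the level of 13 other alpha-defensins, 12 G2/M genes and 7 goblet markers; each point is 1 library, circles untreated and triangles doxorubicin, colour by genotype. The members run from -1.75 to 2.51 with r = 0.95, 0.86 and 0.13 in the 3 panels.

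The 12 other secreted products as a list had r = 0.46 with the members' mean level and the 17 regulators 0.66. Among the products, Spink4, a peptide gene of secretory cells, followed the members (r = 0.81), while the lectin genes Reg3b and Reg3g did not (r = -0.09 and 0.01). Spink4 is also one of the goblet markers used here. Reg3b was the one product of that list to rise in any comparison with drug in mice fed ad libitum, 8.64-fold at 24 h (log2 3.11 ± 0.74, adjusted p = 0.032). Of the regulators, Kcnn4 (r = 0.76) and the receptor gene Ephb3 (0.68) were closest to the members, and the transcription factor genes Atoh1 (-0.20), Gfi1 (-0.30) and Spdef (-0.13) were not.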

How the data were processed

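Poly-A RNA of 23 libraries was sequenced as read pairs without strand, per the labels' protocols, so overlapping antisense transcripts cannot be told apart. Trim Galore, STAR, DESeq2 and mm10 are named in the submitters' processing notes, while versions and the counting method are not given in the sources used here. The deposited values are signal, read counts the authors divided by 1 size factor per library. Dividing by each library's step gave whole reads for 100% of values (tolerance 0.01 of a read), 11418115 to 23428519 per library, where 1 read stands for 0.705 to 1.672 normalized reads, the smallest step a value can resolve.

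Genes averaging 10 or more normalized reads (11939) entered two-sided tests with limma 3.58.1 in R 4.3.3 (moderated variance, intensity trend) on log2(value + 1), with 12 conditions plus genotype in 23 libraries (10 residual degrees of freedom), 7 feeding pairs as a block (6), or a genotype by drug term (9). Benjamini-Hochberg adjustment was over all genes tested, with a threshold of 0.05, and folds are on the log2(value + 1) scale. As alternatives, the recovered reads were tested with edgeR 4.0.16 (quasi-likelihood) and with DESeq2 1.42.0, with others of pseudocount, filter, scaling, weights and libraries left out, and the script was tested on simulated data. The members and gene lists were chosen with earlier results of these data known. The text names the 7 members, Ddit4, Lyz2, at most 4 genes past the threshold per other list and comparison, and the 10 genes most like the members' mean. Atoh1, Gfi1, Spdef, Kcnn4, Ephb3, Spink4, Reg3b, Reg3g, Mptx1 and Retnlb were named for their relation to the members after their values were seen. Clps, Pnliprp2 and Nupr1 were named for the library in which they were highest.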

Additional observations from a re-analysis of the deposited data

Results flagged for a closer look

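Each member was looked at in 3 groups of libraries (8 untreated, 7 ad libitum doxorubicin, 8 prefasted doxorubicin), 21 groups in all. In 10 of the 21 groups, 1 library stood apart by a wide gap in normalized reads. The cutoff used is one that chance exceeds in about 1 of 20 groups if values are normally distributed. Normalized reads are skewed towards high values, and all 10 gaps lay at the high end, so that rate cannot be applied here. The gaps were not taken on the log2 scale of the tests, and they serve as a description only. The groups mix times and genotypes, and the members move together, so the 10 gaps are not independent.

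The prefasted knockout 2 h after doxorubicin stood above the other 7 prefasted doxorubicin libraries for 6 members. It had 6685 normalized reads of Lyz1 (next 2236), 6321 of Itln1 (next 2096), 714 of Mptx2 (next 154), 1501 of Defa17 (next 296), 10255 of Defa24 (next 2441) and 217 of Mmp7 (next 79.4). It also had the highest G2/M and stem levels of its group, 0.77 and 1.27 on the log2 scale relative to each gene's mean.

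Among untreated libraries, the wild type refed for 2 h stood apart with 2443 normalized reads of Defa17 (next 992) and 17544 of Defa24 (next 8555). Ang4 stood apart in the ad libitum knockout 12 h after doxorubicin, with 755 (next 239), and in the prefasted wild type at 12 h, with 944 (next 466).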

How the results depend on the processing

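Over 84 pairs of member and comparison, the 5 calls kept their sign in all 165 alternatives run and kept the call in 154. Of the 79 values that did not pass, 30 changed sign in at least 1 alternative and 15 passed in at least 1. With each library left out in turn, members past the threshold numbered 0 to 6 between 2 and 6 h of refeeding, 1 to 3 at 12 h of doxorubicin in mice fed ad libitum, and 0 to 2 for doxorubicin at 2 h of refeeding. A condition that lost a library kept 1, assumed to vary like the others. Array weights gave 2 members between 2 and 6 h of refeeding, 4 at 12 h and 1 at 24 h of doxorubicin. Without the 4 libraries of conflicting title there were 6 between 2 and 6 h of refeeding, 4 at 12 h, and 1 each at 6 h, at 24 h and from fasted to 2 h of refeeding. Without the 3 libraries lacking Y-linked reads there were 2 between 2 and 6 h of refeeding, and without the 2 with pancreatic transcripts 2 at 12 h. DESeq2 gave 5 between 2 and 6 h of refeeding, 2 at 12 h and 3 for feeding before the drug, where edgeR gave 4, 1 and 0. Of all 11939 genes, DESeq2 called 1634, 1577 and 21 in these comparisons, edgeR 857, 1002 and 0, and limma 1075, 1074 and 0. For the other settings the share of all genes is not given here, so their counts do not show a change particular to the members. The cause of the changes between settings was not tested.

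For feeding before doxorubicin, the Ang4 difference turned to 0.05 with quantile normalization and 0.01 with array weights, and the Mmp7 difference to 0.05, 0.04 and, without the 4 libraries of conflicting title, 0.05. Without those 4 libraries, which leaves the knockout pairs only, the Ang4 difference was -1.31. Leaving out single libraries gave -0.79 to 0.57 for Ang4 and -0.12 to 0.08 for Mmp7. By replicate number, no paired analysis was possible because every condition holds 1 library per genotype, so these numbers pair nothing. The 7 feeding pairs and the model of conditions plus genotype match libraries on condition, genotype and time instead. The alternatives without libraries lacking Y-linked reads, and without those holding pancreatic transcripts, were defined from the read values of these data. The low depth of Mptx2 (4 reads in 1 library) limits its folds.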

Other observations

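Ang4 parted from the other members in 3 libraries, and other genes were listed beside it after their values were seen. Mptx1, a near copy of Mptx2, had 94.8 normalized reads in the untreated ad libitum knockout and 65.4 in the ad libitum knockout 12 h after doxorubicin, against at most 20.6 in the other 21. Retnlb, an antimicrobial gene of goblet cells, had 68.9 and 23.4 in the same libraries and at most 12.8 elsewhere. In the prefasted wild type at 12 h, where Ang4 equalled Defa24, Mptx1 was at 14.2 and Retnlb at 10.4.

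Across the 23 libraries the log2 ratio of Ang4 to Defa24 had r = 0.56 with the level of 5 tuft cell markers and 0.02 with that of goblet markers. The tuft level was highest, at 1.18, in the ad libitum knockout 12 h after doxorubicin. These are descriptions over libraries that share conditions.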
